A study of Mus musculus with 4 samples.

Results

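The cells described here are the endocardial cushion mesenchyme of the embryonic mouse heart, as picked by marker genes from single-cell RNA sequencing of dissociated hearts at stage E10.5. A cell was a member when it had at least 1 unique molecular identifier (UMI, a counted RNA molecule) of Twist1, at least 3 of Hapln1, at most 1 of Stmn4, at most 1 of Cdh5 and Pecam1 together, none of Epcam, and Tnnt2 below 10 UMIs per 10000 UMIs of that cell. Of 33589 barcodes in 4 libraries, 28025 passed limits on genes, UMIs and mitochondrial reads, and 2200 of those were members. The other 25825 passing cells are called the remaining cells.

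All hearts were of strain C57BL/6J. The 2 Wt libraries were wild type, and the 2 Ho libraries were homozygous for I383V, a substitution placed in Cyp51 with CRISPR/Cas9 and homology-directed repair. Cyp51 encodes lanosterol demethylase, an enzyme of cholesterol synthesis, and every cell of a Ho embryo carries the change. How many hearts made up a library, and whether the libraries came from separate litters, was not given in the sources used here, so a p-value over 2 against 2 libraries measures only the spread between these libraries. Ho1 stood apart in its sex-linked genes: members of Ho1 held 2786 Xist UMIs and 0 of the Y-linked Ddx3y, whereas members of each other library held at most 1 of Xist and from 206 to 297 of Ddx3y. Values without Ho1 are therefore given beside several results below.

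Cushion mesenchyme arises when endocardial cells lining the atrioventricular canal and outflow tract lose their endothelial character and move into the matrix between endocardium and myocardium, a step driven by BMP and TGF-beta signals from the myocardium. The mesenchymal cells later give rise to the valves and parts of the septa, and the outflow cushions also receive cells from the neural crest. Twist1 is a basic helix-loop-helix factor of mesenchymal cells, Hapln1 a link protein that ties proteoglycans such as versican to hyaluronan, Msx1 a homeobox factor downstream of BMP, and Cthrc1 a secreted collagen triple helix repeat protein.

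The members numbered 497 and 600 in the wild-type pair (Wt1 and Wt2) and 694 and 409 in the homozygous pair (Ho1 and Ho2). They carried 7084708, 9580909, 10115946 and 6916752 UMIs in that order, out of 109893733, 117034633, 127018819 and 107377100 in the whole libraries. Median depth per member was 13381 and 15036.5 UMIs in Wt and 13741.5 and 15759 in Ho, so the 4 libraries were read to a similar depth in these cells. No barcode was a member in more than 1 library, although each pair of libraries shared from 14 to 34 of all the barcodes in the files. Scrublet, a caller of doublets, marked 844 passing cells and 35 members; they were kept.

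As a share of passing cells the members made up 6.00% of Wt1 (95% exact Clopper-Pearson interval 5.50 to 6.53) and 8.77% of Wt2, against 10.01% of Ho1 and 6.85% of Ho2. The highest and the lowest of the 4 shares were Ho1 and Wt1, and the genotypes overlapped. The mean was 7.39% ± 1.96 in Wt (SD, n = 2) and 8.43% ± 2.23 in Ho (SD, n = 2), a difference of 1.05 percentage points that was smaller than the spread within either genotype (two-sided exact permutation test, p = 0.667, the smallest possible p being 0.333). Leaving out Ho1 turned the difference to -0.534 points and leaving out Wt1 turned it to -0.341. A share of dissociated cells depends on how every other cell type was recovered, and its interval covers counting error only.

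The rule's own genes set the members apart by construction and are given without a test. Twist1 stood at 610.5, 670.0, 623.4 and 685.1 UMIs per 1000000 summed UMIs (CPM) in members of Wt1, Wt2, Ho1 and Ho2, against 128.6, 85.1, 62.6 and 65.3 in the remaining cells. Hapln1 stood at 824.6, 791.4, 873.5 and 880.3 CPM in members and at 119.9, 169.4, 203.1 and 140.6 CPM in the remaining cells. Both levels varied little among the 4 libraries within the members.

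The rule did not use the other marker genes. Cthrc1 stood at 598.6, 588.3, 701.5 and 578.5 CPM in members against 98.2, 84.6, 58.7 and 51.4 in the remaining cells. Msx1 stood at 117.2, 156.8, 150.6 and 162.1 CPM in members against 50.8, 28.9, 23.8 and 28.3. Both were higher in the members of every library than in the remaining cells. Cthrc1 did not set members apart from the 350 cells that met every criterion except that on Stmn4, which held it at 523.8, 678.1, 562.9 and 476.4 CPM. The remaining cells are a mixture of many types whose makeup differed among the libraries, and members and remaining cells were not tested against each other.

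The 20 genes that led the members were ranked by their lowest ratio to the remaining cells over the 4 libraries, among genes at 50 CPM or more. Col9a3, a chain of the cartilage collagen IX, led with ratios of 10.51, 10.8, 17.5 and 18.5 in Wt1, Wt2, Ho1 and Ho2. Rtn1, a reticulon of the endoplasmic reticulum, followed with ratios from 10.2 to 14.4. Sox9, the transcription factor of cartilage and valve precursors, had ratios from 4.12 to 7.05. These ratios are to all remaining cells together, and the cells failing only on Stmn4 held the same 3 genes at levels near those of members or above them, with Rtn1 at 237 to 436 CPM against 208 to 235, Sox9 at 161 to 225 against 127 to 156 and Col9a3 at 80.5 to 115 against 100.2 to 127.

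Several leading genes belong to the extracellular matrix or bind it. Fbln2 (fibulin 2) had ratios from 5.76 to 7.78, Postn (periostin, a matricellular protein of valve mesenchyme) from 4.37 to 6.57, and Thbs1 (thrombospondin 1) from 4.14 to 7.03. The integrin subunits Itga4 and Itgb5 had ratios from 5.95 to 7.95 and from 3.92 to 4.79, and the adhesion molecule Ncam1 from 5.41 to 6.74. The growth factor Igf1 and Igfbp7, a secreted protein that binds insulin-like growth factors, had ratios from 3.80 to 5.23 and from 5.32 to 7.40. In the cells failing only on Stmn4, Fbln2 (170 to 204 CPM against 140 to 152 in members) and Igfbp7 (543 to 689 against 354 to 365) were higher than in members, Itgb5, Itga4 and Thbs1 overlapped with members, and Ncam1 (63.3 to 90.8 against 150.3 to 202) and Igf1 (66.0 to 103 against 151 to 193) were lower. The list was completed by Cthrc1, described above, and by Gm14226, Gm35533, Car3, Akr1b8, Tubb3, Ociad2, Pdlim3 and Upk3b, and the last of these, a uroplakin of mesothelium, is not a gene of cushion mesenchyme. Of these, Pdlim3 (1764 to 2328 CPM against 1119 to 1330) and Tubb3 (156 to 233 against 69.6 to 92.4) were higher in the cells failing only on Stmn4 than in members. Car3 was also higher there in each library, at 147.6, 98.0, 181.7 and 181.8 CPM against 80.9, 91.0, 98.2 and 129.4. Gm14226, Gm35533, Akr1b8, Ociad2 and Upk3b were lower there in each library.

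**Figure D1:**
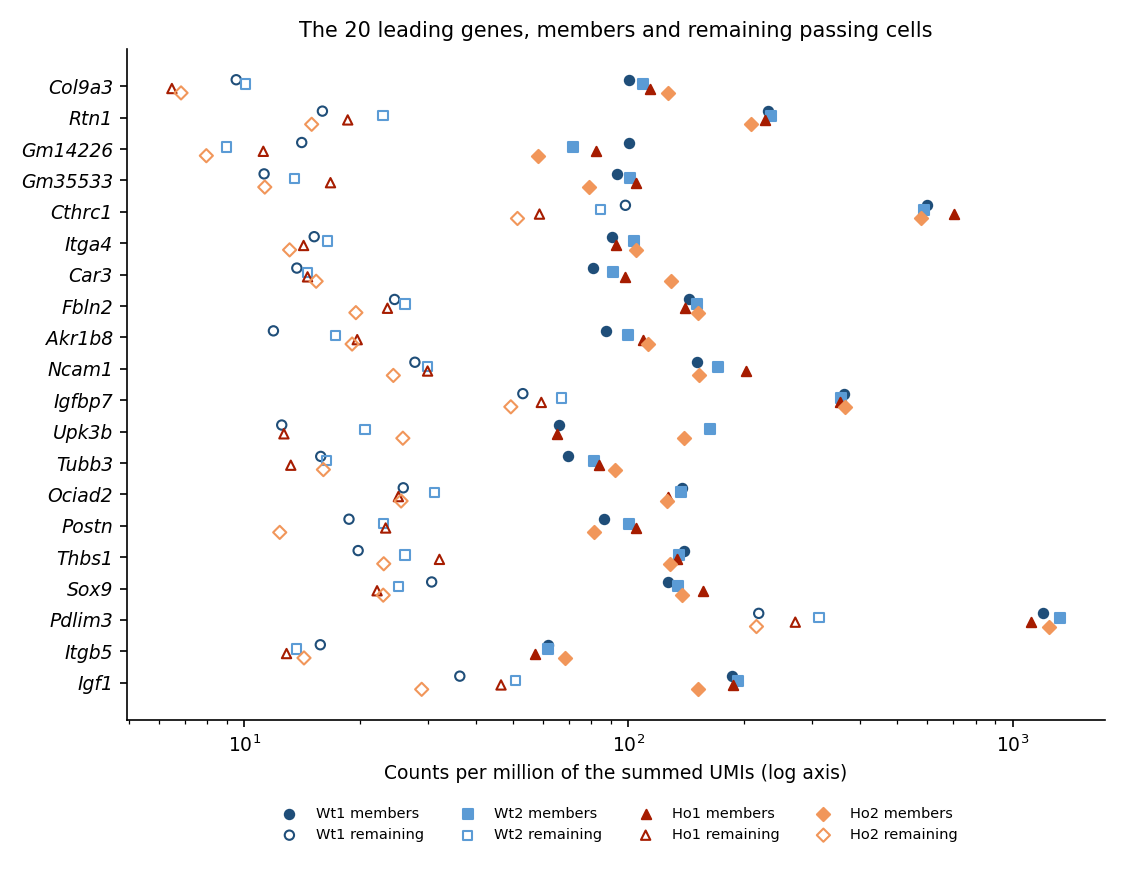
CPM (log axis) of the 20 leading genes, with filled symbols for members and open symbols for the remaining cells, and 1 symbol per library. Filled symbols lie to the right of the open ones for every gene and library, with Upk3b ranging from 65.1 to 163 CPM in members.

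Upk3b was carried by a minority of the members. Of the 2200 members, 1947 had no UMI of Upk3b or Upk1b, 24 had 1, 7 had 2 to 4, and 222 had 5 or more. The counts thus fell into a group at or near 0 and a group well above it, with few cells between. The 229 members with over 1 such UMI are called Upk-positive below, and they made up 10.4% of all members (95% exact Clopper-Pearson interval 9.16 to 11.8). The split was drawn after the data had been seen.

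Upk-positive cells were 37 of the 497 Wt1 members (7.44%), 79 of the 600 Wt2 members (13.2%), 47 of the 694 Ho1 members (6.77%) and 66 of the 409 Ho2 members (16.1%). Their share differed more between libraries of 1 genotype than between the genotypes. Among all passing cells, 989 had over 1 UMI of the pair, so most cells of this kind did not meet the rule.

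The Upk-positive members met the rule narrowly and were deep. Their median was 24214 UMIs a cell against 13829 in the other 1971 members, and their median Hapln1 was 2.62 against 9.38 UMIs per 10000. Exactly 1 Twist1 UMI was found in 39.7% of them and in 4.97% of the other members. The median count was 2 Twist1 UMIs in the former and 10 in the latter.

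**Figure D2:**
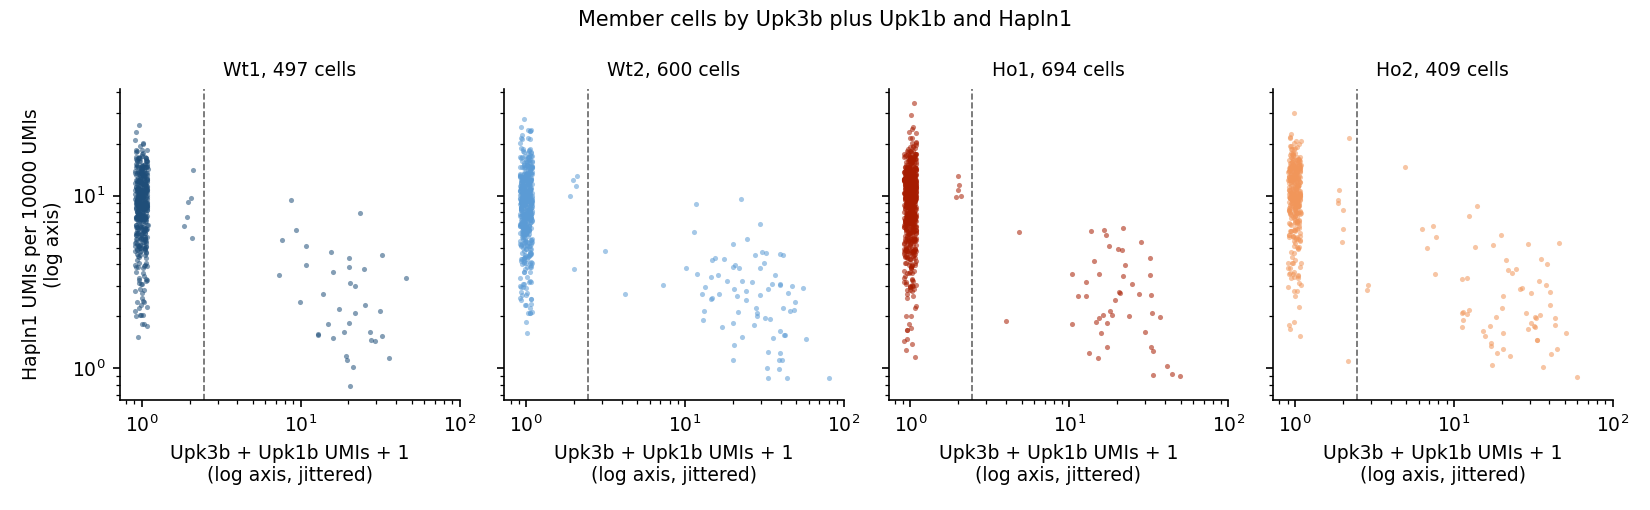
Each point is 1 member, with its UMIs of Upk3b and Upk1b plus 1 (x, log axis, jittered) and its Hapln1 UMIs per 10000 UMIs (y, log axis), in a panel per library; the dashed line parts cells with at most 1 UMI from those with more. The group to the right of the line holds 37, 79, 47 and 66 cells in Wt1, Wt2, Ho1 and Ho2 and sits lower in Hapln1, at a median of 2.62 against 9.38.

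The Upk-positive members differed from the others far beyond the uroplakins. The epicardium is the mesothelial sheet over the heart, and its genes were high in them in every library. Tbx18, a T-box factor of epicardium, stood at 167, 141, 157 and 226 CPM in the Upk-positive members of Wt1, Wt2, Ho1 and Ho2 and at 2.09, 2.50, 0.899 and 7.25 CPM in the others. The Wilms tumour 1 gene, an epicardial zinc finger factor, stood at 126.1, 143.7, 121.4 and 149.5 CPM against at most 2.98 in the others.

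Tcf21, a basic helix-loop-helix factor of epicardium and its derivatives, was at 799.6 to 1003 CPM in them and at 91.3 to 136.7 in the others. Aldh1a2, which makes retinoic acid, was at 35.3 to 58.5 CPM against at most 1.12. Upk3b and Upk1b, which made the split, are higher in these cells by construction, and the other 4 epicardial markers of the list were higher in them in all 4 libraries. The keratin gene Krt18 (361.1 to 614.2 CPM against 5.51 to 11.3), the proteoglycan gene Dcn (277.8 to 437.1 against 1.61 to 2.89) and the cytoskeletal linker gene Ezr (330 to 482 against 10.9 to 18.4) were also higher.

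The genes of the cushion label were lower in the Upk-positive members. Msx1 stood at 6.94, 7.08, 7.38 and 6.50 CPM in them and at 132.5, 195.7, 170.2 and 206.6 in the others. Vcan, which encodes versican, stood at 53.2 to 58.2 CPM against 532 to 662, and Cthrc1 at 89.7 to 167.8 against 658 to 785. Has2, the hyaluronan synthase of the cushions, was at 9.02 to 15.05 CPM against 90.4 to 109, and Postn at 13.9 to 21.8 against 96.5 to 121.0. Pdlim3, a LIM protein of the actin cytoskeleton, was at 7.38 to 73.4 CPM against 1271 to 1657. Leading genes of the members were not all lower, as Itga4 was at 151 to 223 CPM in the Upk-positive members against 72.0 to 86.1 in the others, and Fbln2 at 148 to 197 against 137 to 139.

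In all, 88 genes were at least 2 times higher in the Upk-positive members of every library, of 2364 at 50 CPM or more there, and 92 were at least 2 times lower, of 2676 at 50 CPM or more in the others. Cyp51 was at 59.0 to 79.3 CPM in them and at 45.4 to 53.7 in the others. The selected set thus held 2 kinds of cells by their markers, and the label's markers were high in the 1971 members with at most 1 UMI of Upk3b and Upk1b. These differences describe 1 set of cells split by its own genes and were not tested.

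**Figure D3:**
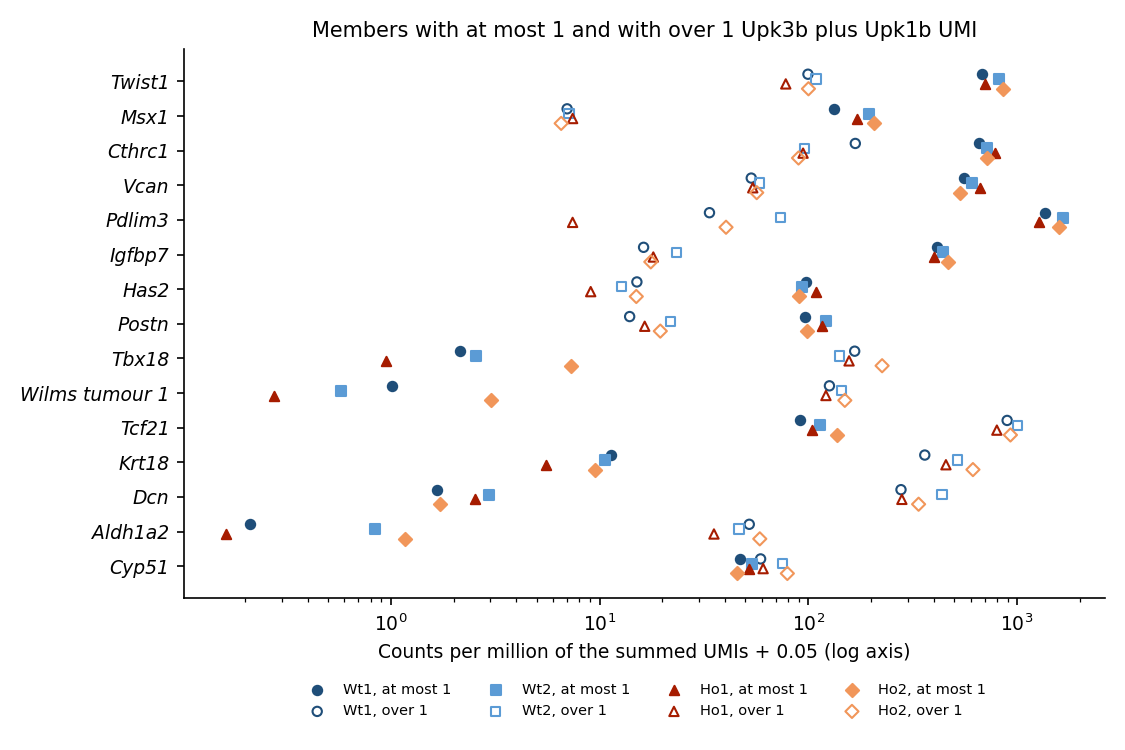
CPM plus 0.05 (log axis) of 15 genes in members with at most 1 (filled) and with over 1 (open) UMI of Upk3b and Upk1b, with 1 symbol per library. From Twist1 to Postn the open symbols lie to the left, from Tbx18 to Aldh1a2 to the right, and the 4 libraries agree in each case.

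Without the Upk-positive cells, and with Upk3b and Upk1b barred from the ranking because they made the split, 18 of the 20 leading genes remained. Papss2, which supplies sulphate for proteoglycans, and Has2 took the places of Upk3b and Tubb3. The gradient in Hapln1 among the members also narrowed. Between the upper and the lower tercile of members ranked by Hapln1 per UMI, 12 genes were at least 2 times higher and 30 at least 2 times lower in all 4 libraries over all members. Over the members with at most 1 UMI of the uroplakins, 0 were higher and 5 were lower. The genes of the rule, Hapln1 and Twist1 among them, were left out of these counts.

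Those 5 were Acta2, Myl7, Myl4, Actc1 and Tnnc1, all genes of the contractile apparatus. Myl7, the atrial light chain, stood at 277.9, 519.2, 980.7 and 573.6 CPM in the lowest tercile of Wt1, Wt2, Ho1 and Ho2 and at 93.7, 130.4, 216.5 and 96.9 CPM in the highest. Acta2, smooth muscle actin, stood at 284, 379, 343 and 383 CPM in the lowest tercile and at 38.9, 70.3, 77.6 and 130 in the highest. The members poorest in Hapln1 were thus richest in these transcripts in each library.

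Cells that met every criterion except 1 show what lies just beyond the rule. One such group, 3054 cells, had Twist1 and Hapln1 but over 1 UMI of Cdh5 and Pecam1, and it outnumbered the members in every library. It held Emcn, an endothelial sialomucin, at 200 to 282 CPM against 9.18 to 11.3 in members, Kdr, the main VEGF receptor, at 95.9 to 121 against 6.23 to 10.3, and Npr3, a natriuretic peptide receptor of endocardium, at 117 to 132 against 13.7 to 19.6. Of all cells with the required Twist1 and Hapln1 counts, 50.5% and 54.3% in the Wt libraries and 57.1% and 55.4% in the Ho libraries had over 1 UMI of the endothelial pair.

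Cells failing only on Stmn4 numbered 350 and were rich in smooth muscle and outflow transcripts. Postn stood at 316, 357, 378 and 296 CPM in them against 86.4, 101, 104 and 81.3 in members of Wt1, Wt2, Ho1 and Ho2. Tagln, an actin-binding protein of smooth muscle, stood at 2346 to 3828 CPM against 571 to 922, and Msx1 at 19.3 to 36.8 against 117.2 to 162.1. Cells failing only on Hapln1 numbered 4232, of which 2486 came from Wt1 and 196 from Ho1. They held the chemokine gene Cxcl12 at 84.4 to 437 CPM against 3.16 to 11.1 in members, and the retinoic acid binding protein gene Crabp2 at 50.7 to 451 against 11.6 to 42.3.

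At the limits themselves the change was gradual for the endothelial pair. Members with 1 UMI of Cdh5 and Pecam1 held Emcn at 15.5 to 26.0 CPM, and cells with 2, just outside, at 38.7 to 92.2. For Hapln1, members with exactly 3 UMIs held Cthrc1 at 102 to 324 CPM and cells with 2 at 107 to 211, values that overlapped. For Stmn4, members with 1 UMI held Msx1 at 69.4 to 132 CPM and cells with 2 at 30.1 to 82.2.

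The genotypes were compared to ask what a change in an enzyme of cholesterol synthesis does in the developing heart, and here that question was put to the members alone. UMI counts were summed over the members of each library and the 2 Ho sums were set against the 2 Wt sums with edgeR's quasi-likelihood test. Of 12109 genes tested, 0 (0%) passed a Benjamini-Hochberg adjusted p of 0.05, and the lowest adjusted p was 0.136. At an unadjusted p under 0.05, 613 genes (5.06%) were found, 337 higher in Ho (2.78%) and 276 lower (2.28%), and DESeq2 called 5. The Ho pair was entirely above the Wt pair for 2015 genes (16.6%) and entirely below it for 2078 (17.2%).

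Distances between libraries of different genotype lay within the range of those between libraries of the same genotype. Over 4006 genes above 32 CPM, the median absolute log2 difference was 0.0843 between Wt1 and Wt2 and 0.110 between Ho1 and Ho2. Across genotypes it ran from 0.0895 to 0.108.

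Leaving out a library moved the count of calls strongly. It was 146 without Ho1, 78 without Ho2, 2 without Wt2 and 0 without Wt1. The calls without Ho1 and without Ho2 shared 18 genes, which is 12.3% of the former and 23.1% of the latter. Among the members with at most 1 UMI of the uroplakins, 3 genes were called, Wdr89, Rps27rt and Igfbp5, with edgeR adjusted p of 0.0228, 0.0311 and 0.0410.

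The edited gene itself did not pass the test. Cyp51 stood at 49.3 and 57.2 normalised CPM in members of Wt1 and Wt2 and at 53.5 and 52.5 in Ho1 and Ho2, a log2 fold change of -0.01 ± 0.11 (SE, edgeR adjusted p = 0.997). The Ho values lay between the Wt values. The edit changes a codon that counts of 3′ ends do not read, so the level of Cyp51 does not check the genotype labels.

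The genes named next had the lowest unadjusted p among genes whose libraries did not overlap, at a mean of 20 normalised CPM or more. None passed the adjusted threshold over all genes, so they are given as values. Wdr89, a WD40 repeat protein, stood at 43.1, 42.8, 72.8 and 80.7 normalised CPM in Wt1, Wt2, Ho1 and Ho2, a log2 fold change of 0.83 ± 0.10 (SE, edgeR adjusted p = 0.136). Both Wt libraries agreed closely, and both Ho libraries lay well above them. Its log2 fold change in the remaining cells was 0.77.

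Atf3, a stress-induced transcription factor, stood at 160.1, 155.6, 245.4 and 224.6 normalised CPM, a log2 fold change of 0.58 ± 0.08 (SE, edgeR adjusted p = 0.209). Lmo4, a LIM-only adaptor of transcription complexes, stood at 221, 237, 315 and 302, a log2 fold change of 0.43 ± 0.08 (SE, edgeR adjusted p = 0.369). Igfbp5, which binds insulin-like growth factors, stood at 93.05, 105, 135 and 155, a log2 fold change of 0.55 ± 0.10 (SE, edgeR adjusted p = 0.369). In each of these genes the lower Ho library exceeded the higher Wt library, by the choice of the genes. The log2 fold changes in the remaining cells were 0.70 for Atf3, 0.11 for Lmo4 and 0.57 for Igfbp5. In members without any Tnnt2 UMI, that of Igfbp5 was 0.19.

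Atpaf2, an assembly factor of the mitochondrial ATP synthase, stood at 15.5, 16.8, 27.0 and 27.6 normalised CPM, a log2 fold change of 0.75 ± 0.13 (SE, edgeR adjusted p = 0.367). Its log2 fold change was 0.05 in the remaining cells and 0.32 in members with no Cdh5, Pecam1 or Stmn4 UMI. The list of higher genes also held mt-Nd1, a subunit of respiratory complex I, and 3 genes with near-identical copies elsewhere in the genome, Rps27rt, Rpl9-ps6 and Gm11808, whose log2 fold changes of 0.93, 0.48 and 0.44 are uncertain because reads can be split among copies.

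Myl7 stood at 478.9, 623.4, 859.5 and 846.7 normalised CPM, a log2 fold change of 0.63 ± 0.12 (SE, edgeR adjusted p = 0.376). Myl7 is a myocardial gene, and all cardiomyocyte markers have to be read with it. The 8 markers of that list summed to 1150, 1493, 2000 and 1572 CPM in members and to 12307, 24072, 29737 and 24576 in the remaining cells of Wt1, Wt2, Ho1 and Ho2, with Myl7 the most abundant and none at 0. Of the 7 other than Tnnt2, which the rule held low, 4 were higher in Ho at an unadjusted p under 0.05, against 2.78% of all genes. The median log2 fold change of the 7 was 0.79. The Ho pair was entirely above the Wt pair for 1, Myl7, and entirely below it for 1, Tnni1. Of all genes, 16.6% and 17.2% were so placed. Without Ho1 the median was -0.03, and the log2 fold change of Myl7 was 0.62. In members with no Tnnt2 UMI the log2 fold change of Myl7 was 0.17 (edgeR adjusted p = 0.938). Myl7 was also higher in the Upk-positive members, at 2028 to 3660 CPM against 183.7 to 465.5 in the others. In those others it stood at 183.7, 269.7, 465.5 and 270.9 CPM in Wt1, Wt2, Ho1 and Ho2, so that Ho2 was close to Wt2. The part of free myocardial RNA in these values was not tested.

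Among genes lower in Ho, Eno1 came first. This enolase of glycolysis stood at 369, 346, 251 and 272 normalised CPM, a log2 fold change of -0.45 ± 0.08 (SE, edgeR adjusted p = 0.369). Both Ho libraries lay below both Wt libraries, by the choice of the genes, and the log2 fold change in the remaining cells was -0.36. Hist1h1e, a linker histone, had a log2 fold change of -0.54, Arhgdib of -0.37, and Hs3st1, which sulphates heparan sulphate, of -0.76.

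The other lower genes were Fbxl7, Gm49708, Nnat, Gm47283, Ap1s1 and Btaf1, with log2 fold changes from -0.53 to -0.32. Nnat, an imprinted gene for a small membrane protein, was at -0.32 in members and at -1.19 in the remaining cells. Gm47283 lies at chrY:90784738-90816464 (GRCm38), at the end of the Y chromosome that is shared with the X, and it was read in Ho1, which had no UMI of Ddx3y.

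**Figure D4:**
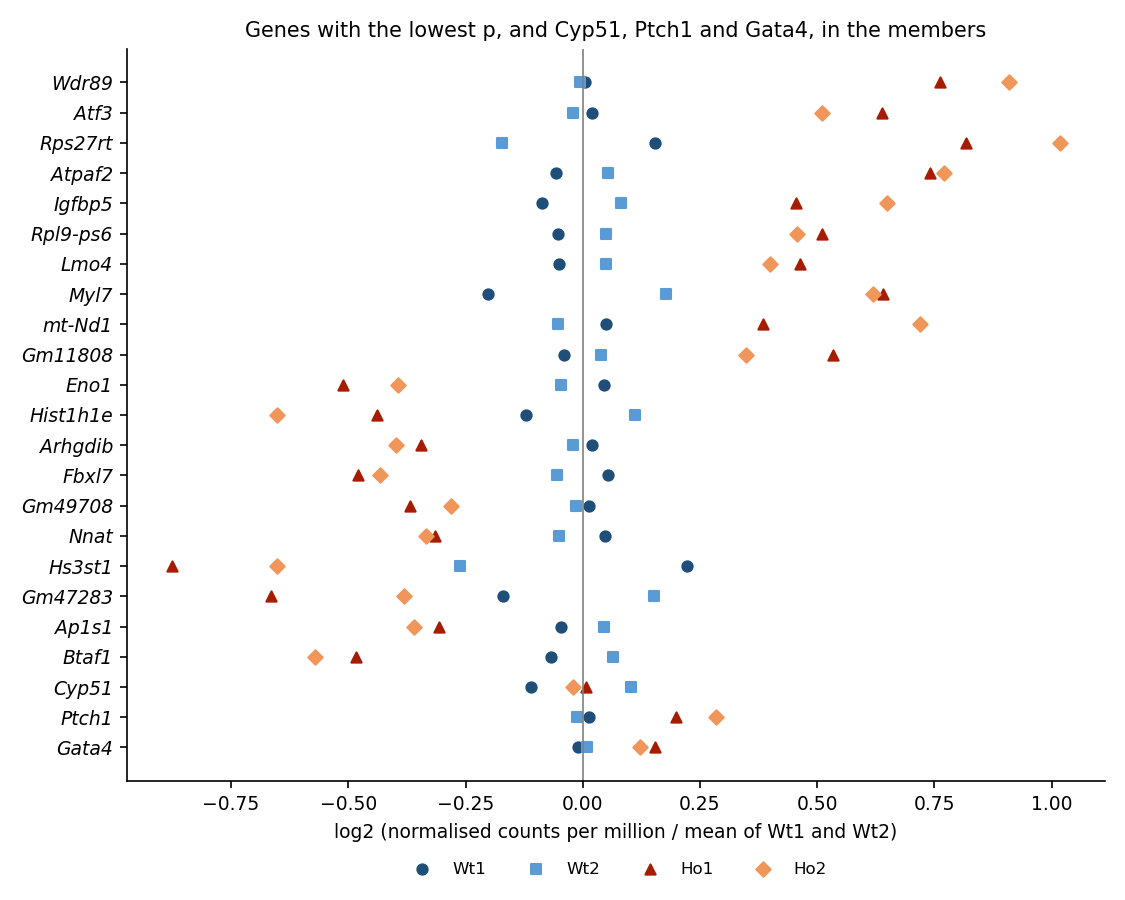
Log2 ratio of the normalised CPM in each library to the mean of Wt1 and Wt2, in members, for the 10 higher and 10 lower genes with the lowest p and for Cyp51, Ptch1 and Gata4. The Ho symbols lie to 1 side of both Wt symbols in all rows but that of Cyp51, by the choice of the first 20 genes.

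Whether the genotype difference in members departed from that in the remaining cells was tested as an interaction over the 8 sums, with the library as a block. Of 16520 genes tested, 0 (0%) passed an adjusted p of 0.05 with edgeR, 586 (3.55%) had an unadjusted p under 0.05, and DESeq2 called 2, Cthrc1 and Scx. The lowest edgeR adjusted p was 0.456. The count was 122 without Wt2, 36 without Ho2, 5 without Wt1 and 4 without Ho1, and 59 when members with any Tnnt2 UMI were left out.

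Cthrc1 had the lowest p. Its log2 fold change was 0.11 in members, or -0.05 without Ho1 and 0.25 without Ho2. In the remaining cells Cthrc1 stood at 98.2 and 84.6 CPM in Wt1 and Wt2 and at 58.7 and 51.4 in Ho1 and Ho2, a log2 fold change of -0.67. The difference was 0.79 ± 0.12 (SE, edgeR adjusted p = 0.456). Col9a3 had log2 fold changes of 0.20 in members and -0.50 in the remaining cells, Serpinf1 of -0.17 and -1.02, and Mecom of 0.07 and -0.57. Rspo3, a Wnt agonist, had -0.10 and 1.02. In these 5 genes the fold change was larger in the remaining cells than in members. The mix of cell types in the remaining cells was not the same in the 4 libraries, since cells failing only on Hapln1 numbered 2486, 786, 196 and 764, and its part in these differences was not tested.

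The gene lists below group the measured genes by role. No member of any list was called at an adjusted p of 0.05, against 0% of all genes tested. The median log2 fold change over all genes tested was 0.0034. The counts of genes at an unadjusted p under 0.05 are to be read against 5.06% of all genes. Of the 21 medians of pathway and process lists, only 2, those of the cushion transcription factors and the mitochondrially encoded genes, kept their sign and stayed within 1.5 times when each library was left out in turn.

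Transcription factors of the cushion had a median log2 change of 0.13. Of 36 tested, 29 were higher in Ho and 7 lower, and the Ho pair was entirely above the Wt pair for 15 and entirely below it for 2, where 16.6% and 17.2% of all genes were so placed. Gata4, a zinc finger factor of heart and endocardium, stood at 106, 107, 118 and 116 normalised CPM, a log2 fold change of 0.14 ± 0.08 (SE, edgeR adjusted p = 0.978). Sox9 stood at 129, 132, 158 and 137 (log2 fold change 0.18), Tbx20 at 203, 193, 228 and 206 (0.14), and Snai1, a repressor that acts in the endothelial to mesenchymal transition, at 25.7, 26.1, 29.4 and 30.7 (0.21). No factor of the list passed the test. At an unadjusted p under 0.05 were 2 higher factors, Tbx3 and Tgif1 (log2 fold changes 0.63 and 0.22), and 2 lower ones, Hand1 and Prrx1. Without Ho1 the log2 fold change was 0.07 for Sox9, 0.06 for Tbx20, 0.28 for Tbx3 and -0.75 for Hand1.

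Hand1 had a log2 fold change of -1.11 at 5.61, 7.72, 2.40 and 4.02 normalised CPM. Prrx1 had -0.83, at 33.9, 21.4, 15.9 and 14.8. Its value was -0.48 without Wt1 and -0.88 without Ho1. Over the 4 libraries the lowest edgeR adjusted p among the cushion transcription factors was 0.705. Prrx1 is also a marker of pharyngeal mesenchyme, and the 4 genes of that list that were tested all had negative log2 fold changes. Its 9 genes summed to 93.2, 43.2, 33.5 and 42.8 CPM in members and to 428.7, 84.5, 30.1 and 107.7 in the remaining cells, with Crabp1 the most abundant in members. Foxf1 of the same list had 16, 21, 3 and 7 UMIs in members of Wt1, Wt2, Ho1 and Ho2, a log2 fold change of -1.87 (edgeR adjusted p = 0.867) that was -1.13 without Ho1, and Crabp1 was at -0.78, or 0.15 without Wt1. The part of pharyngeal cells or their free RNA in these differences was not tested.

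Matrix genes were centred on 0. In the cushion matrix, 37 genes were tested at a median of -0.00, with 18 higher and 19 lower. Vcan stood at 503, 490, 595 and 423 normalised CPM in Wt1, Wt2, Ho1 and Ho2, Has2 at 88.7, 75.1, 98.0 and 73.1, and Postn at 88.0, 99.1, 106 and 80.7. The genotypes overlapped in each. Adamts1, a protease that cleaves versican, was at 41.1, 41.3, 50.1 and 47.5 (log2 fold change 0.25, unadjusted p = 0.033). Lum, the gene of the proteoglycan lumican, was at 7.91, 15.4, 8.69 and 5.60 (-0.71, unadjusted p = 0.0498), and its value was -0.12 without Wt2 and -1.10 without Ho1. Its genotypes overlapped.

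Of 19 collagen genes tested, 14 were lower in Ho and 5 higher, with a median log2 fold change of -0.08 that was 0.02 without Wt2. At an unadjusted p under 0.05 were 1 lower, Col3a1, and 1 higher, Col9a3. Col3a1, fibrillar collagen III, stood at 327, 301, 264 and 251 normalised CPM, a log2 fold change of -0.28 ± 0.08 (SE, edgeR adjusted p = 0.867). Both Ho values lay below both Wt values. Col9a3, the leading gene of the members, was at 102, 107, 115 and 126 (log2 fold change 0.20, edgeR adjusted p = 0.972).

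In the BMP pathway 27 genes were tested, with a median log2 fold change of 0.04. The ligands Bmp2 (14.96, 16.3, 15.9 and 14.5 normalised CPM) and Bmp4 (16.4, 21.8, 14.8 and 20.5) overlapped between genotypes. The receptor Acvr1 was at 23.2, 21.8, 26.9 and 30.1 (log2 fold change 0.34, unadjusted p = 0.023) and the common mediator Smad4 at 70.5, 60.2, 55.7 and 54.1 (-0.25, unadjusted p = 0.044, or -0.13 without Wt1). Among the target genes Id2 was at 337, 325, 453 and 367 (0.31, unadjusted p = 0.014, and 0.15 without Ho1), Id3 at 1758, 1880, 1729 and 1605 (-0.13, or -0.07 without Ho2), and Id1 overlapped at 149, 152, 172 and 148. The targets thus did not share a direction.

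The 20 genes tested of the TGF-beta pathway had a median of 0.05, and 0 had an unadjusted p under 0.05. Tgfb2, the ligand made in the cushions, was at 67.9, 82.5, 83.4 and 89.1 normalised CPM (log2 fold change 0.19, or 0.06 without Wt1 and 0.35 without Wt2). In the FGF and ErbB list, with 17 tested and a median of -0.02, the 3 genes with an unadjusted p under 0.05 were Spry2, Spry4 and Dusp6, all feedback inhibitors of receptor tyrosine kinase signalling, with log2 fold changes of 0.35, 0.58 and 0.29. That of Spry2 was 0.18 without Wt1 and 0.57 without Wt2. Their relatives Spry1 and Spred1 had log2 fold changes of -0.13 (0.21 without Ho1) and 0.08 (-0.12 without Wt1). Of 33 Wnt genes and 13 Notch genes tested, 0 and 1 had an unadjusted p under 0.05, with medians of 0.03 and 0.12.

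Of 26 hedgehog genes, 19 were tested, at a median of 0.10, and 1, Foxf1, described above, was lower at an unadjusted p under 0.05. The list summed to 385, 403, 433 and 412 CPM in members and to 382, 304, 252 and 344 in the remaining cells of Wt1, Wt2, Ho1 and Ho2. Gli1, a target and effector of the pathway, had 7 and 6 UMIs in the Wt libraries and 13 and 6 in the Ho libraries, and fell below the filter on low counts. Ptch1, the receptor and a target, stood at 15.8, 15.5, 18.0 and 19.1 normalised CPM, a log2 fold change of 0.24 ± 0.14 (SE, edgeR adjusted p = 0.978). Smo, the transducer, was at 36.8, 36.2, 28.4 and 34.0 (log2 fold change -0.23, or -0.10 without Ho1). The 48 genes tested of the primary cilium, where the pathway is transduced, had a median of -0.02, with 0 at an unadjusted p under 0.05.

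Genes of cholesterol synthesis were measured in full, with all 23 tested. Their median log2 fold change was 0.07 (-0.04 without Ho2 and 0.14 without Wt2), 14 were higher and 9 lower, and 0 had an unadjusted p under 0.05. Hmgcs1, a synthase early in the pathway, stood at 58.5, 67.5, 68.9 and 76.4 normalised CPM in Wt1, Wt2, Ho1 and Ho2 (log2 fold change 0.20, or 0.11 without Wt1 and 0.31 without Wt2). The sterol-responsive gene Insig1 overlapped between genotypes, with a log2 fold change of -0.05 (0.14 without Ho1). Its list, sterol regulation and transport, had 28 genes tested, a median of 0.03 and 0 genes at an unadjusted p under 0.05.

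**Figure D5:**
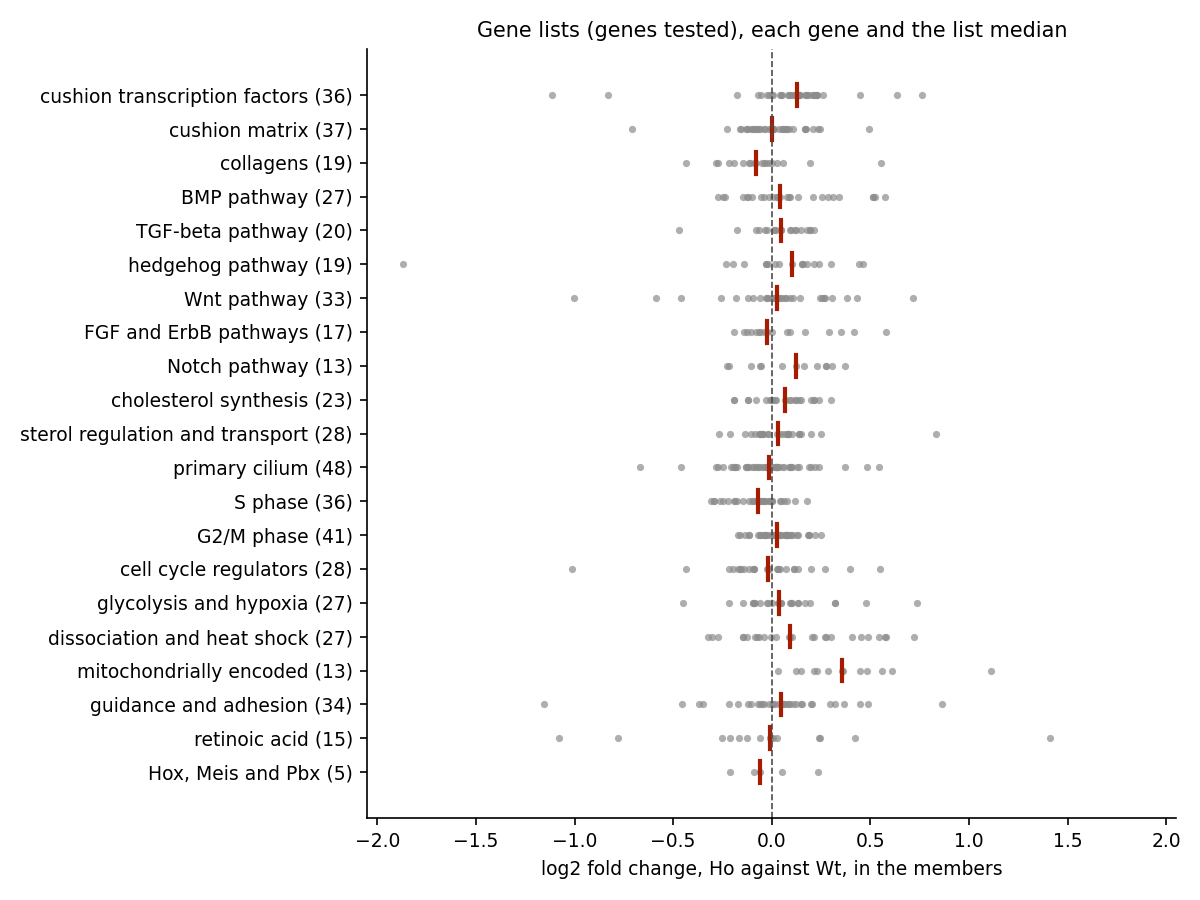
Log2 fold change of Ho against Wt in members (x) for each gene tested (grey points) in 21 lists, with the list median (red bar) and the median over all genes tested, 0.0034 (dashed line). The mitochondrially encoded genes have the median farthest from the line, at 0.36.

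Of the pathway and process lists, marker lists left aside, mitochondrially encoded genes had the highest median. All 13 were higher in Ho, with a median log2 fold change of 0.36, and 7 had an unadjusted p under 0.05. For 8 the Ho pair was entirely above the Wt pair, where 16.6% of all genes were so placed. Together they made up 10128, 10868, 11224 and 14270 CPM of the members and 11147, 13128, 14111 and 18455 CPM of the remaining cells of Wt1, Wt2, Ho1 and Ho2. The sum in Ho1 was close to that in Wt2, and Ho2 stood above the rest. mt-Nd5 stood at 124, 123, 155 and 162 normalised CPM, a log2 fold change of 0.36 ± 0.08 (SE, edgeR adjusted p = 0.577). The median share of mitochondrial UMIs per member was 1.01% and 1.06% in Wt and 1.09% and 1.39% in Ho.

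Genes that respond to tissue dissociation had fold changes of both signs, and none passed the adjusted threshold. Of 27 tested, 9 had an unadjusted p under 0.05 and were higher in Ho: Fos, Fosb, Egr1, Ier2, Atf3, Dusp1, Klf4, Klf6 and Nr4a1. A further 3, the chaperone genes Hspa8, Dnajb1 and Hsph1, were lower. Fos stood at 65.4, 87.9, 94.6 and 122 normalised CPM (log2 fold change 0.49, or 0.30 without Wt1). Hspa8 stood at 2076, 2190, 1571 and 1882 (-0.31, or -0.18 without Ho1). The immediate early genes among them are also targets of growth factor signalling.

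S-phase genes were mostly lower in Ho. Of 36 tested, 29 were lower and 7 higher, with a median log2 fold change of -0.07. For 12 the Ho pair was entirely below the Wt pair, where 17.2% of all genes were so placed. The 5 with an unadjusted p under 0.05 were Tyms, Gins2, Cdc6, Fen1 and Clspn. Tyms, thymidylate synthase, was at 227, 228, 202 and 181 normalised CPM (log2 fold change -0.25) and Gins2, part of the replicative helicase, at 89.9, 96.1, 80.4 and 74.3 (-0.26). The 41 G2/M genes had a median of 0.03, with 26 higher and 15 lower. In the remaining cells the median of the S-phase genes was -0.15.

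Cdkn1a, the inhibitor of cyclin-dependent kinases induced by p53, stood at 24.02, 19.96, 8.39 and 13.8 normalised CPM, a log2 fold change of -1.01 ± 0.22 (SE, edgeR adjusted p = 0.579). Cxcl12, a chemokine, stood at 10.9, 10.9, 3.20 and 7.03 (log2 fold change -1.15, edgeR adjusted p = 0.833). In both genes the Ho libraries were below the Wt libraries, with Ho1 lowest, and without Ho1 the log2 fold changes were -0.66 for Cdkn1a and -0.63 for Cxcl12. Cxcl12 was also among the genes higher in the cells failing only on Hapln1 than in members. Those cells were fewest in Ho1, and their part in this difference was not tested.

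For the remaining lists the median log2 fold changes lay between -0.06 and 0.05. That of the 28 cell cycle regulators was -0.02, and 2 were higher and 3 lower at an unadjusted p under 0.05. The 27 genes of glycolysis and hypoxia had a median of 0.04, with 2 higher and 1 lower, and the 34 of guidance and adhesion a median of 0.05, with 2 higher and 3 lower. Of the retinoic acid genes 15 were tested, at a median of -0.01 and with 1 lower, and of the Hox, Meis and Pbx genes 5 of 16, at a median of -0.06 and with 0.

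Markers of other cell types were checked in the members as whole lists. The 9 genes of erythroid cells, which were lysed during preparation, summed to 20.3, 36.7, 49.9 and 47.3 CPM in members and to 339.7, 909.7, 2297 and 825.2 in the remaining cells, with Hbb-y the most abundant. Of these, 4 were tested, and all 4 were higher in Ho at an unadjusted p under 0.05, with a median log2 fold change of 1.94 and a lowest edgeR adjusted p of 0.617. Without Ho1, 3 were tested, at a median of 0.98. Both Ho sums were above both Wt sums in members. The part of free erythroid RNA in other differences between the genotypes was not tested. The 9 endothelial markers summed to 291.6, 273.7, 272.1 and 299.3 CPM, led by Egfl7, and overlapped between genotypes. Cdh5 and Pecam1 among them were held low by the rule, and the other 7 summed to 272.4, 256.6, 250.7 and 281.1. The 6 epicardial markers summed to 333.8, 591.7, 324.1 and 635.1 CPM, led by Tcf21, with Wt2 and Ho2 above Wt1 and Ho1, as in the shares of Upk-positive members.

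The 5 macrophage markers summed to 1.83, 1.67, 19.8 and 1.45 CPM in members, led by Fcer1g. Only in Ho1 did C1qb, Tyrobp and Fcer1g exceed 1 CPM, at 4.84, 4.74 and 6.52. Neural crest and outflow markers summed to 109.4, 123.1, 126.1 and 102.4 CPM, of which Postn held 86.4, 101, 104 and 81.3 and Isl1 13.97, 12.7, 10.1 and 10.7. The 4 second heart field markers summed to 14.8, 13.99, 10.3 and 12.1 CPM, led by Isl1, and the 6 epithelial markers to 95.4, 190.3, 102.7 and 242.6, led by Krt18, a gene of the Upk-positive members. The rule limited Stmn4 among the neural crest and outflow markers and Epcam among the epithelial ones.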

How the data were processed

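Per the labels and the study's methods, hearts were dissociated with enzymes, red cells were lysed, and 10x 3′ libraries were aligned and counted by the authors with Cell Ranger 6.1.1 on mm10; Seurat 4.1.0 was named for later steps. The deposited matrices hold raw UMI counts per gene and barcode for 32285 genes, with no normalization. Barcodes with 500 to 6000 genes, 2000 to 50000 UMIs and at most 20% mitochondrial UMIs were kept here (the study's lower limit of 500 UMIs was an alternative). The members, and all gene lists, were chosen with earlier results of these data known. Member counts were summed per library (scanpy 1.11.5, Python 3.11.15), since cells are not replicates, in place of the per-cell test of the study. CPM are UMIs per 1000000 summed UMIs, and normalised CPM also use TMM factors. Genes were filtered with filterByExpr and tested with edgeR 4.0.16 (glmQLFTest, R 4.3.3; Benjamini-Hochberg over all genes). DESeq2 1.42.0, other filters, normalizations and member rules and leaving out each library were alternatives; the fits were tested on simulated counts. 2 member rules, no Tnnt2 UMI and at most 1 Upk3b and Upk1b UMI, were added after seeing the data.

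Named genes were, in each direction, those called, filled up to 10 with the lowest unadjusted p among genes at 20 CPM or more whose libraries did not overlap; 5 by the interaction; from each list the 3 most abundant and the 2 with the lowest p; Cyp51, Gli1, Ptch1 and Gata4; and the 20 leading genes. Other genes of the lists and of the splits were chosen after their values were seen. Wt1 and Wt2 name libraries throughout. Counts between replicates differed beyond sampling noise (chi-square per gene 4.46 in Wt, 6.76 in Ho). Gene coordinates are from GENCODE on GRCm38, in which 99.8% of the gene identifiers were found. Values of some single genes are not reported here.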

Additional observations from a re-analysis of the deposited data

How the results depend on the processing

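The count of genes called between Ho and Wt in members, 0, was 5 with DESeq2 (Wdr89, Rps27rt, Myl7, Atf3 and mt-Nd1), 146 with no filter on low counts, 4 in members with no Cdh5, Pecam1 or Stmn4 UMI, 3 in members with at most 1 Upk3b and Upk1b UMI, 2 with summed counts thinned to the smallest library, and from 0 to 146 when a library was left out. It stayed at 0 with RLE normalization, at least 10 UMIs in every library, at most 10% mitochondrial UMIs, at least 500 UMIs per cell, Hapln1 of at least 6 UMIs, cells thinned to 5000 UMIs, doublets left out, and no Tnnt2 UMI. With the replicate number as a block it was 48; the labels give no pairing, and the deviations of same-numbered libraries correlated at 0.0773 over 12109 genes and at 0.151 over the 4006 genes above 32 CPM. With 1 such pair of deviations, whether the numbers pair the libraries cannot be told from the data, and they are treated as sharing only a number. The count for the difference between members and remaining cells, 0, was 2 with DESeq2, 120 with no filter, 59 in members with no Tnnt2 UMI, and from 4 to 122 when a library was left out; it stayed at 0 under the other settings, no library block included. The difference in the share of members, 1.05 points, ranged from -0.534 to 2.62 when a library was left out and kept its sign under the other settings. The log2 fold change of Cyp51, -0.01, ranged from -0.108 to 0.106 when a library was left out (0.106 without Wt2, 0.00264 without Ho2), and was 0.0605 with no Cdh5, Pecam1 or Stmn4 UMI, 0.00206 with doublets left out and 0.0426 with thinned sums. The 20 genes named by lowest p, Ptch1 and Gata4 kept their direction under all settings run. The 20 were chosen as not overlapping between the genotypes, and Ptch1 and Gata4 did not overlap either. Leaving out a library could therefore hardly turn their sign, so this is no measure of robustness. Of 585 list genes tested, chosen without that condition, 196 had the same sign under all settings. Medians of 21 lists, recomputed under the alternatives, moved by more than the spread between libraries in 39 of 378 values, in 9 lists, most often Wnt (10) and G2/M phase (9), and 11 lists had a median of the other sign under at least 1 setting; the Notch median, 0.12, was -0.10 without Wt2, and that of glycolysis and hypoxia, 0.04, ranged from -0.11 to 0.13. With 1 library left in a genotype, that library is assumed to vary like the others. The cause of these changes was not tested. The 2 libraries a genotype limit all p-values, and Gli1, at 6 to 13 UMIs a library, was not tested.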

Other observations

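Cyp51 was also compared across the 2 kinds of members. In the Upk-positive members it stood at 59.0, 74.9, 60.7 and 79.3 CPM in Wt1, Wt2, Ho1 and Ho2, and in the other members at 46.9, 53.7, 51.9 and 45.4. The values did not overlap, and within either kind the genotypes did. This was seen after the split was drawn and was not tested.

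Within the Upk-positive members Myl7 was high beside the epicardial genes, at 2531, 2028, 3660 and 2887 CPM in Wt1, Wt2, Ho1 and Ho2. None of the other 7 cardiomyocyte markers was higher in the Upk-positive than in the other members in all 4 libraries. One of the 7, Tnnt2, was held low in all members by the rule. By the mean over the 4 libraries these markers went both ways. The mean was lower in the Upk-positive than in the other members for Tnni1 (253 against 463 CPM), Myh7 (11.4 against 30.2), Myl2 (29.3 against 52.4) and Ttn (29.9 against 35.5). It was higher for Tnnt2 (111 against 101), Actc1 (202 against 187) and Myh6 (26.0 against 25.3). The chondrogenic factor Sox9 was at 75.4 to 89.4 CPM in the Upk-positive and at 133 to 166 in the other members. Msx1 was far lower in the former, at 6.50 to 7.38 CPM against 132.5 to 206.6. Hapln1, on which all members were chosen, lay at 283.3 to 289.3 CPM in the Upk-positive members of the 4 libraries, a narrow range, and at 898.9 to 1050 in the others.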
